A study of Mus musculus with 250 samples.

Results

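The guidance genes described here are the ephrins, their Eph receptors, the semaphorins, their plexin receptors and the neuropilins. They were chosen by name alone, as the rows of the count table whose symbol belongs to 1 of these families, which gave 54 of 24490 rows. Of these, 53 are family genes and 1, Plxna4os1, is an antisense RNA named after Plxna4.

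The study measured single cells from the brains of adult C57BL/6 mice, about 3 months old, of the genotype SM22-Cre;Rosa26-stop-tdTomato. All 250 cells are titled astrocytes and form 1 group, and no animals are named, so there is no comparison between conditions and no known replicate. In these mice Cre is driven by the promoter of SM22 (the gene Tagln), a smooth muscle gene, and removes a stop before the red fluorescent protein tdTomato. Cells were sorted into wells by fluorescence and converted to full-length cDNA by Smart-seq2, which has no molecular identifiers; the gate is not stated.

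The column headers, unlike the titles, name the cells VSMC, which commonly stands for vascular smooth muscle cells, and number them 2 or 3 before a well position. They are taken as plates, 162 cells from plate 2 and 88 from plate 3. Of 12 astrocyte markers, 11 reached 10 CPM (counts of a gene per 1000000 counts of the cell) in at least 50% of the 250 cells. None of 8 smooth muscle markers did: Acta2 was in 39 cells, Myl9 in 28, Lmod1 in 6, Tagln and Myh11 in 5 each, Tpm2 in 3, and Cnn1 and Des in none. Of 6 pericyte markers, Pdgfrb was in 94 cells, Vtn in 13 and the others in at most 3. The exception among the astrocyte markers was Gfap, a common antibody target for astrocytes, with 32 cells. Another cell type was represented by 3 or more of its markers in 45 cells (18%), of which 34 had oligodendrocyte markers and 9 neuronal ones, with a cell counted for each type it carried. The cells held a median of 282290 counted reads (102161 to 564958), 256247 on plate 2 and 391072 on plate 3.

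Guidance genes carry contact signals between cells. Ephrins are membrane-bound ligands of the Eph receptor tyrosine kinases: ephrin-A proteins hang on a lipid anchor and mostly bind EphA receptors, while ephrin-B proteins span the membrane and mostly bind EphB receptors. Semaphorins signal through plexins, whose inner domain acts on small GTPases and so on the cytoskeleton. Secreted class 3 semaphorins mostly need a neuropilin to hold them to a plexin, while the transmembrane classes bind plexins directly. In the adult brain astrocytes touch synapses and vessels with fine processes, and ephrin to Eph contacts between astrocytes and neurons are known to shape dendritic spines.

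Detection in a cell means a level of at least 10 CPM. Levels below are in CPM, with the SD between cells over all 250 cells. Intervals on shares are exact 95% binomial (Clopper-Pearson) intervals, which cover counting error only. Because cells of unknown animals are not replicates, no p-value is given.

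The cells carried a small set of semaphorin pathway genes widely and most of the other guidance genes rarely. In at least 50% of the cells, 5 members were detected: the plexin gene Plxnb1, the transmembrane semaphorin genes Sema4b, Sema6d and Sema4a, and the neuropilin gene Nrp1. They are 9.8% of the 51 members with reads, beside 5.92% of all 16367 genes with reads. A further 11 members reached 10% of the cells, which gives 16 members (31.4% of those with reads), beside 45.3% of all genes with reads. Under 10% of the cells were 32 members with 1 to 23 cells each. Sema3a, Sema3d and Plxna4os1 had 2 cells each with a read, all under 10 CPM. Efna3, Epha6 and Epha8 had no read, and a count of 0 still allows up to 3 of 250 cells, or 1.2% (the exact interval ends at 1.46%), for counting error only. The median share was 2.4% of cells for all 54 members, with Efna3, Epha6 and Epha8 included, and 8.0% for all genes with reads. By these medians, which differ in how genes without reads are treated, the typical guidance gene was sparser than the typical gene with reads.

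**Figure D1:**
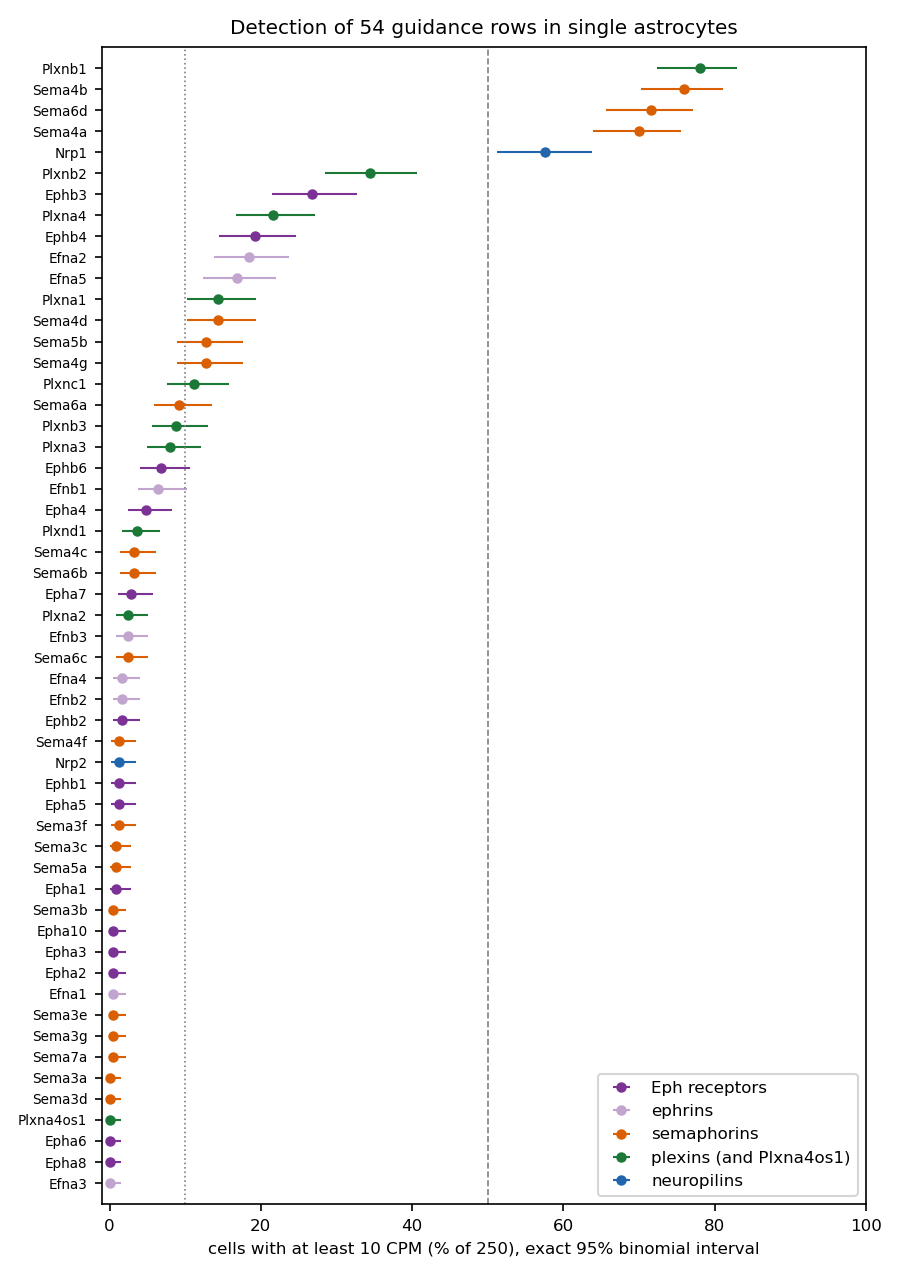
Share of the 250 cells (x axis, percent) in which each guidance gene (y axis) was detected at 10 CPM, coloured by family, with exact 95% binomial intervals for counting error only. The 5 genes from Plxnb1 at 78.0% to Nrp1 at 57.6% lie to the right of the 50% line, and Plxnb2 follows at 34.4%.

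Upstream sequence is shown for 3 of these genes, because widely detected and undetected members both carried the same short motif there. RefSeq promoter windows (GRCm38.p6, 250 bases upstream of each start) were available for 47 of the 54 members, with 61 windows in all. Shown are the 200 bases from 250 to 51 before the start for the widely detected receptor genes Plxnb1 and Nrp1 and for the Eph receptor gene Epha8, which had no read. Capitals mark GGGCGG or its complement CCGCCC, the GC box that Sp family factors can bind.
Plxnb1, chr9:109095186-109095385, plus strand: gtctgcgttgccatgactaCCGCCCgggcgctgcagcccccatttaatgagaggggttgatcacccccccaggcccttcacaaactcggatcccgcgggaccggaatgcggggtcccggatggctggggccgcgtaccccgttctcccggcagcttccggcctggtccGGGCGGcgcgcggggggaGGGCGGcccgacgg
Nrp1, chr8:128358823-128359022, plus strand: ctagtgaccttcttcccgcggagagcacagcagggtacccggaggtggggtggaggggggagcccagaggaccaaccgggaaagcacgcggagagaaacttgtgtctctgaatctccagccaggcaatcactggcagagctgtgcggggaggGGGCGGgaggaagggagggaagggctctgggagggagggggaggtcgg
Epha8, chr4:136956867-136957066, minus strand: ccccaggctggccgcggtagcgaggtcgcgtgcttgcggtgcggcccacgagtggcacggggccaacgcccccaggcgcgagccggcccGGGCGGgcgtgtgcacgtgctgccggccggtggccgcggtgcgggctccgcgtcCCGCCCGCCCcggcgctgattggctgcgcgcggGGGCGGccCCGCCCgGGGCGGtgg

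The Plxnb1 stretch held 3 GC boxes and the Nrp1 stretch 1, while that of the unread Epha8 held 6. The Plxnb1 stretch also overlaps an exon of the neighbouring gene Gm7628, and those of Nrp1 and Epha8 overlap no annotated exon. The Nrp1 stretch is upstream of its RefSeq start, but it lies within the gene as annotated for positions here, which starts at 128358604. Searched on both strands over the whole 250 bases, GGGCGG was in 46 of the 61 member windows (75.4%) and in 32.7% of the 32851 windows of all genes. Its share was 80% in the 10 windows of the 5 wide members, 75% in the 12 of the next group and 74.4% in the 39 of the members that were rare or without reads. For all measured genes the same groups had 54.4%, 59.9% and 34.6%. TATAAA, the core letters of a TATA box, was in 1 of 61 member windows (1.64%) and in 12.4% of all windows, and CCAAT was in 31.1% and 33.8%. The median base content was 64.4% G and C in the member windows and 52.4% in all windows. A match is a run of letters, not a bound site.

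The semaphorins, the ligands of the plexins, were represented by their transmembrane classes. At least 1 of the semaphorin genes was detected in 243 cells (97.2%, 94.3 to 98.9%). Class 4 was found in 229 cells (91.6%, 87.4 to 94.7%), class 6 in 189 cells (75.6%, 69.8 to 80.8%) and class 5 in 34 cells (13.6%). Class 7, which is the single gene Sema7a, was found in 1 cell. Class 3, the secreted semaphorins that repel axons through neuropilins, was found in 8 cells (3.2%, 1.39 to 6.21%), with a summed mean of 4.15 CPM over its 7 genes.

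Sema4a, a transmembrane semaphorin best known from immune cells and retina, ranged from 0 to 3199 CPM with a median of 261.4 CPM and a mean of 349 ± 413 CPM (n = 250 cells). It was detected in 175 cells (70.0%, 63.9 to 75.6%), in 66.7% on plate 2 and 76.1% on plate 3. Its gene lies on chromosome 3 at 88435959 to 88461182, minus strand. It was thus present in most cells of both plates but absent or under 10 CPM in the others.

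Sema6d, a transmembrane semaphorin that binds the A-type plexin encoded by Plxna1, ranged from 0 to 2617 CPM with a median of 210.6 CPM and a mean of 367 ± 450 CPM. It was detected in 179 cells (71.6%, 65.6 to 77.1%). The gene spans chromosome 2 from 124089969 to 124667770, plus strand. Within the detecting cells its median was 438 CPM, so a cell that had Sema6d usually had it well above the threshold.

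Sema4b, whose product anchors at synapses through its tail, had another shape. It ranged from 0 to 1223 CPM with a median of 42.2 CPM and a mean of 138 ± 210 CPM, and was detected in 190 cells (76.0%, 70.2 to 81.2%). Its median within the detecting cells was 65.3 CPM, and 107 of them reached 50 CPM. Sema4b, on chromosome 7 at 80186841 to 80226527, was therefore in many cells, and in many of these not far above the threshold.

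Among the other semaphorins, Sema4d, the main ligand of plexin-B1, was detected in 36 cells (14.4%, 10.3 to 19.4%). Sema4g and Sema5b were each detected in 32 cells (12.8%). Sema5b is a semaphorin with thrombospondin repeats, and its median within its cells was 272 CPM. Sema6a, which acts with A-type plexins, was just under the 10% line with 23 cells (9.2%). Sema4c, Sema4f, Sema6b, Sema6c, Sema5a and Sema7a were in 1 to 8 cells each. All 7 class 3 genes had at least 1 read, but Sema3b rested on a single cell with 98.3% of its 57 reads and a level of 359 CPM. Sema3c had a read in 16 cells, of which 2 reached 10 CPM, and 72.3% of its reads were in 1 cell.

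The plexins and neuropilins, the semaphorin receptors, were in nearly every cell. At least 1 was detected in 245 cells (98.0%, 95.4 to 99.3%). The B-type plexins were in 214 cells (85.6%) and the A-type plexins in 102 (40.8%, 34.6 to 47.2%).

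Plxnb1, the receptor of Sema4d that activates RhoA through a pair of exchange factors, had the highest share of cells of all members at this threshold, while at 1 read Sema4b was ahead with 88.0% against 83.2%. It ranged from 0 to 1899 CPM with a median of 317.1 CPM and a mean of 425 ± 447 CPM. It was detected in 195 cells (78.0%, 72.3 to 83.0%), in 74.7% on plate 2 and 84.1% on plate 3. The gene lies on chromosome 9 at 109095389 to 109119917, plus strand, and 257 bases of its exons are shared with Gm7628. The strand setting of the counting is not given, so reads of these bases cannot be assigned to one of the genes.

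Nrp1, a co-receptor for class 3 semaphorins and for the growth factor VEGF-A, ranged from 0 to 1333 CPM with a median of 44.7 CPM and a mean of 215 ± 306 CPM. It was detected in 144 cells (57.6%, 51.2 to 63.8%) and lies on chromosome 8 at 128358604 to 128503363. Its level was uneven: the lower quartile of all cells was 0 CPM, while the median of the 144 detecting cells was 279 CPM. Its relative Nrp2 was detected in 3 cells, with 71.4% of its reads in 1 of them.

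Plxnb2, another receptor of class 4 semaphorins, was detected in 86 cells (34.4%, 28.5 to 40.6%) at a mean of 109 ± 215 CPM. Plxna4 was in 54 cells (21.6%) and Plxna1 in 36 (14.4%). Both are signalling partners of the neuropilins. Of the Plxna1 exon bases 970 of 9054 are shared with Gm26811 on the other strand, and reads of these bases cannot be told apart, also in its pairs below. Plxnc1, the receptor of Sema7a, was in 28 cells (11.2%). The remaining plexins were under 10%, with Plxnb3 in 22 cells, Plxna3 in 20, Plxnd1 in 9 and Plxna2 in 6.

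The order of the widely detected genes by share of cells holds for the 10 CPM threshold only. Their intervals cover counting error, and all shares come from the same cells, so the intervals do not test the order. The intervals of Plxnb1, Sema4b, Sema6d and Sema4a overlapped between neighbours. The upper bound of Nrp1 at 63.8% was just under the lower bound of Sema4a at 63.9%. The upper bound of Plxnb2 at 40.6% lay well below the Nrp1 interval, so at 10 CPM a gap separates the 5 genes from the rest. At 50 CPM Nrp1 was in 122 cells and Sema4b in 107, which made Sema4b the last of the 5.

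**Figure D2:**
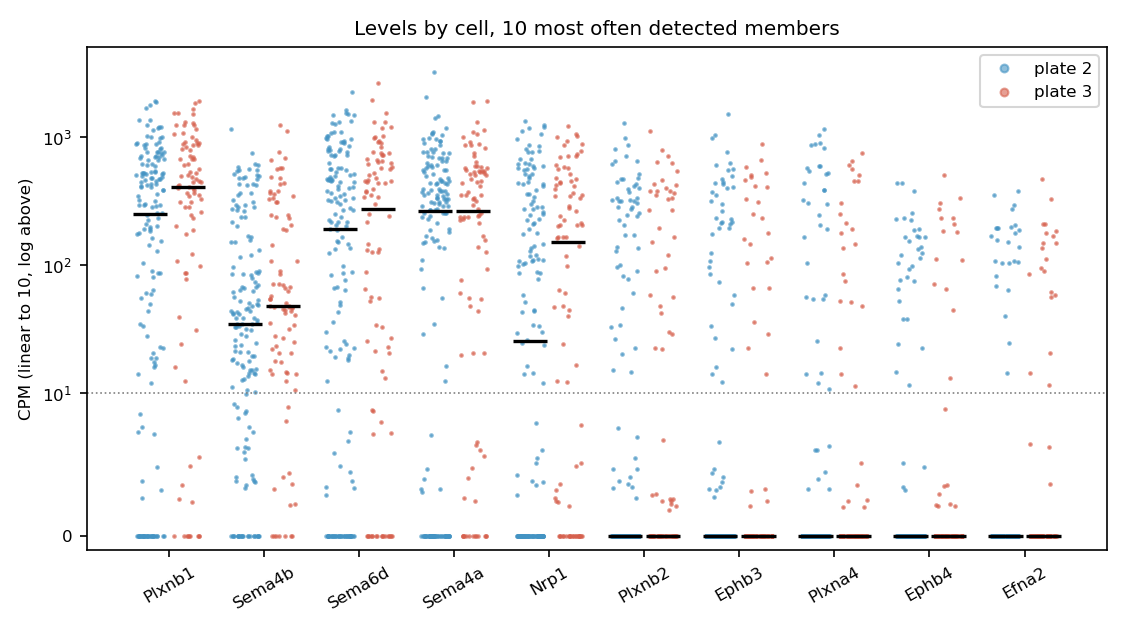
Level in every cell (y axis, CPM, linear up to 10 and logarithmic above) of the 10 guidance genes detected most often, with 1 point per cell, plates 2 and 3 side by side and a bar at each plate's median. Each gene has cells at 0 and cells far above its median; medians over all cells are 317.1 CPM for Plxnb1 and 42.2 CPM for Sema4b.

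Levels of different genes were compared per kilobase of exon (the union of all annotated exons), since a longer transcript collects more reads in this method. On that scale of mean CPM per kb, Sema4a led with 64.6, followed by Plxnb1 with 44.3, Sema6d with 34.8, Sema4b with 24.4 and Nrp1 with 22.0. Then came Efna5 with 14.3, Plxnb2 with 14.1, Efna2 with 12.9, Ephb3 with 12.6 and Ephb4 with 6.66. The median of the 15532 genes with reads and a length was 3.33, so all of these 10 lay above it. Per plate, Sema4a had 62.8 and 67.9 and Plxnb1 38.7 and 54.5 on plates 2 and 3. With the longest transcript as the length, Sema4a still led with 109, but Nrp1 came next with 59.1, then Sema6d with 57.0, Plxnb1 with 49.1 and Sema4b with 34.9, so the order below Sema4a depends on the gene model.

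The ephrins were found in fewer cells than the semaphorins. At least 1 ephrin was detected in 98 cells (39.2%, 33.1 to 45.6%), an ephrin-A in 82 (32.8%) and an ephrin-B in 25 (10.0%). Efna2 was detected in 46 cells (18.4%, 13.8 to 23.8%) at a mean of 27.6 ± 71.9 CPM. Efna5, whose graded expression guides retinal and cortical axons in development, was detected in 42 cells (16.8%, 12.4 to 22.0%) at a mean of 57.5 ± 182 CPM. Its highest cell had 1200 CPM, and the median of its 42 cells was 313 CPM, so Efna5 was high in few cells. Efna3, the ephrin described on astrocyte processes at hippocampal synapses, had no read. Of the ephrin-B genes, Efnb1 was in 16 cells, Efnb3 in 6 and Efnb2, a ligand of vessels, in 4. Efna4 was in 4 cells and Efna1 in 1.

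The Eph receptors were mainly of the B type. An EphB gene was detected in 110 cells (44.0%, 37.8 to 50.4%) and an EphA gene in 26 (10.4%, 6.91 to 14.9%). Ephb3 was found in 67 cells (26.8%, 21.4 to 32.7%) at a mean of 84.0 ± 201 CPM. Ephb4, known as the venous partner of ephrin-B2, was found in 48 cells (19.2%, 14.5 to 24.6%) at a mean of 30.9 ± 81.0 CPM. Ephb6, a receptor without kinase activity, was found in 17 cells, Ephb2 in 4 and Ephb1 in 3. Epha4, the widely binding receptor of dendritic spines, was the most frequent EphA gene with 12 cells (4.8%), and Epha7 had 7. Epha5 was in 3 cells, Epha1 in 2, and Epha2, Epha3 and Epha10 in 1 each. The EphA genes without a read, Epha6 and Epha8, are both known from the nervous system.

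A single cell carried a median of 6 of these genes, with quartiles of 5 and 8, and between 1 and 13. Plate 2 cells had a median of 6 and plate 3 cells of 7, and it was 7 on both when each cell was thinned to 100000 reads. Counting only the 5 wide genes, 43 cells (17.2%) had all of them, 100 cells had 4, 68 had 3, 26 had 2, 12 had 1 and 1 cell had none. Summed over all members, a cell had a median of 2102 CPM, from 155 to 6659 CPM.

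**Figure D3:**
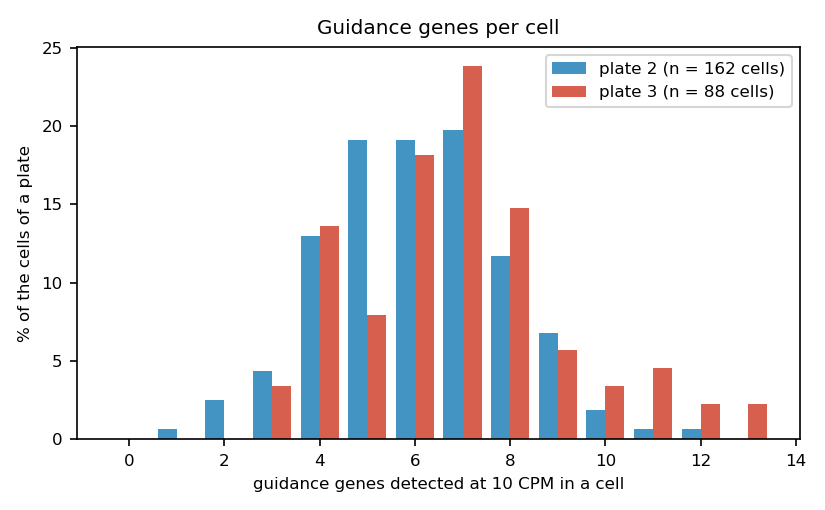
Number of guidance genes detected at 10 CPM in a cell (x axis) against the percent of a plate's cells (y axis), with bars for plate 2 (162 cells) and plate 3 (88 cells). Cells range from 1 to 13 genes with a median of 6.

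Ligands and receptors known to bind each other were next looked up in the same cell, which asks whether 1 astrocyte carries both sides. Of 41 listed pairs between members, 18 were seen together in at least 1 cell and 23 in none. At least 1 listed pair was present in 85 cells (34%, 28.1 to 40.2%), in 33.3% of plate 2 and 35.2% of plate 3. This share depends on the list, which pairs Sema4a with Plxnd1 alone. Sema4a and Plxnb1, not a listed pair, were together in 137 cells, where 137.0 were expected. The expected number given beside each count is the product of the shares on each plate, summed over the plates.

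Sema6d and its receptor gene Plxna1 were together in 26 cells (10.4%), where 25.8 were expected. Sema4d and Plxnb1 were together in 24 cells (9.6%), where 27.8 were expected. For Plxnb2, 14 cells also had Sema4g (11.1 expected) and 12 also had Sema4d (12.3 expected). Sema5b and Plxna1 were together in 5 cells, where 4.60 were expected. These are the 5 listed member pairs with both genes in at least 10% of the cells, and each was close to what its single shares give. Of the ephrin pairs, the most frequent was Efnb1 with Ephb3 in 6 cells, where 4.27 were expected. Efnb2 and Ephb4, the ligand and receptor of the artery and vein border, were together in no cell, with 0.715 expected.

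Class 3 ligands were rare in cells with and without Nrp1, with 8 cells in all, too few to set the Nrp1 cells apart. Of the 144 Nrp1 cells, 2 (1.39%, 0.169 to 4.93%) had a class 3 semaphorin, where 4.74 were expected, beside 3.2% of all cells. An A-type plexin was in 58 of them (40.3%, 32.2 to 48.8%), beside 40.8% of all cells, and Plxnb1 in 115 (79.9%), beside 78.0%. Vegfa, the growth factor that Nrp1 also binds, was detected in 144 cells and shared 86 with Nrp1 (84.1 expected). Each plate had 43 cells with both, which is 26.5% of plate 2 and 48.9% of plate 3, where each of these genes alone also had a higher share.

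Over all member pairs, genes were found together about as often as their shares alone give. The 16 members detected in at least 10% of the cells make 120 pairs, and 72 of them had an expected count of at least 5 cells on both plates. None of the 72 reached a ratio of observed to expected of 1.5 on both plates, beside 0.0617% of 13405590 pairs of all genes, and none was at or below 1/1.5 on both, beside 0.251%. A ratio cannot exceed 1 over the larger share, so with genes as wide as Plxnb1 just 18 of the 72 could reach 1.5 on both plates and 61 could reach 1/1.5. With so few pairs open to the upper limit and so low a share of all pairs past it, the counts of 0 say little about the members. Their ratios ran from 0.783 to 1.25 with a median of 1.01, and the median of all gene pairs was also 1.01.

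Of the 72 pairs, the highest ratio was that of Sema6d and Sema4d, together in 32 cells where 25.6 were expected (1.25). Ephb4 and Plxnb2 followed with 20 cells against 16.4, but with ratios of 0.926 on plate 2 and 1.78 on plate 3. Plxnb2 and Ephb3 shared 28 cells against 23.1, Nrp1 and Efna5 28 against 23.8, and Plxna1 and Nrp1 24 against 20.8. The lowest was Nrp1 with Sema4d, in 16 cells where 20.4 were expected (0.783). Plxna4 and Sema4b shared 35 cells against 41.4, Plxnb1 and Sema4d 24 against 27.8, Sema6d and Sema4g 20 against 23.0, and Efna2 and Ephb3 11 against 12.4. The 10 pairs of wide genes, whose shares leave little room for a ratio far from 1, ran from 0.968 for Sema4b and Plxnb1 (144 cells against 148.8) to 1.04 for Sema4a and Sema4b (139 against 133.6).

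Averaged over member pairs, the rank correlation of levels was near 0. The mean Spearman rho of CPM over cells, taken within each plate, was -0.00065 over the 120 pairs, with -0.0034 on plate 2 (162 cells) and 0.0044 on plate 3 (88 cells). Over pairs of all genes under the same condition it was 0.0069. Single pairs ran from -0.141 to 0.267 among the members and from -0.487 to 0.892 among all genes. A mean near 0 therefore does not show that single pairs are unrelated. Both genes of a pair come from the same libraries and depth, and with counts this sparse the values are a description only.

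**Figure D4:**
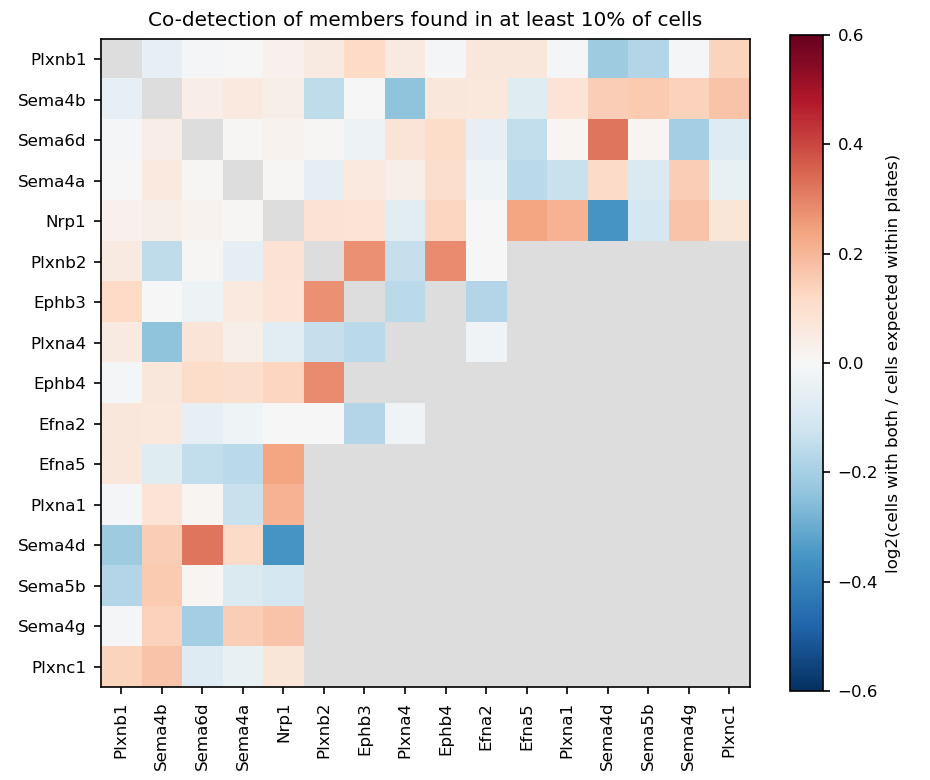
Observed over expected number of cells with both genes for pairs of the 16 guidance genes detected in at least 10% of the cells, drawn as the log2 of the ratio in colour, with genes on both axes and pairs under the minimum in grey. Among the 72 pairs with an expected count of at least 5 cells on each plate, ratios stay between 0.783 and 1.25.

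The plates gave a similar order of levels. Over the 51 members with reads, the Spearman rho of mean CPM between plates was 0.862, beside 0.922 for all genes with reads. Over the 16 members in at least 10% of the cells it was 0.853, beside 0.879 for all such genes. Both are across genes, which are not independent replicates. All 5 wide genes passed 50% of the cells on each plate.

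A filter of 5 CPM on the mean over all cells left 25 of the 54 members for ratios of plate means, taken as log2 of (mean + 1 CPM). Of these, 6 differed at least 2-fold, beside 16.9% of 10414 genes of all. Among all genes 6.5% were higher and 10.4% lower on plate 3, and among the members 3 were higher and 3 lower. Plxna2 and Efnb3 passed the filter only through the plate where they were high, so their place among the 6 is no support for a plate difference. The plate numbers are read from the headers, have no replicates, and may or may not separate animals or brain regions, which the labels do not say.

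By this measure Sema6a had the largest ratio. Ephb6 took that place without the highest cell of each gene on each plate (-3.11, beside 2.45 for Sema6a). However, Ephb6 was detected in 13 cells on plate 2 and 4 on plate 3, so its ratio without the highest cells rests on few cells. Sema6a was detected in 8 of 162 cells on plate 2 (4.94%, 2.16 to 9.50%) and in 15 of 88 on plate 3 (17.0%, 9.87 to 26.6%), with means of 7.36 and 37.9 CPM, a log2 ratio of 2.22. The share thinned to 100000 reads was 6.17% and 19.3%, so the gap remained at equal depth. Sema6a is also known from oligodendrocytes, and the summed level of 10 oligodendrocyte markers ran the other way, with a median of 868 CPM (0 to 4075) on plate 2 and 583 CPM (0 to 2620) on plate 3.

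Plxna2, a receptor of Sema6a, had means of 4.04 and 11.2 CPM, a log2 ratio of 1.28 that rests on 6 cells and was 2.46 without its highest cell on each plate. Sema4g had 15.6 and 34.0 CPM, a log2 ratio of 1.08 that was 0.91 without its highest cell on each plate, 0.75 from summed reads and 0.47 without its 3 highest. Its share of thinned cells was 13.6% on both plates. Lower on plate 3 were Ephb6 with 21.9 and 5.73 CPM (-1.76), Sema4d with 34.2 and 13.7 CPM (-1.26) and Efnb3 with 6.91 and 2.56 CPM (-1.15). Efnb3 was detected in 6 cells in all, and its log2 ratio was -0.87 in thinned cells. Next in size came Plxna1 (0.63) and Plxnb1 (0.49) on the higher side and Sema5b (-0.79) and Plxna3 (-0.59) on the lower side. For Plxnb1 the means were 372 ± 418 CPM for plate 2 and 523 ± 482 CPM for plate 3.

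**Figure D5:**
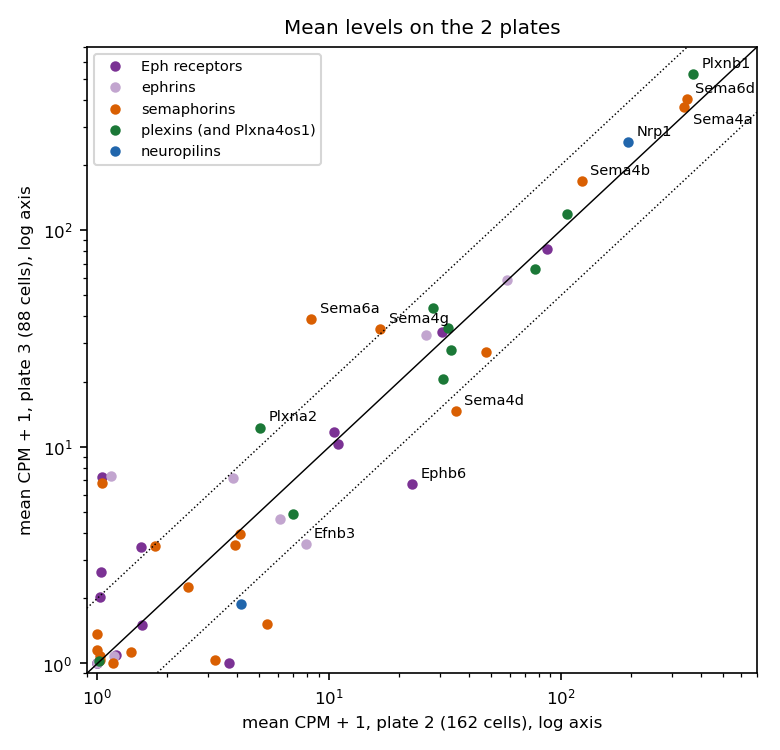
Mean CPM of each guidance gene on plate 2 (x axis) and plate 3 (y axis), both as log axes of mean + 1 CPM, with lines for equal means and for 2-fold differences. Of the 25 genes with a mean of at least 5 CPM, Sema6a, at 7.36 and 37.9 CPM, lies farthest above, and Ephb6, at 21.9 and 5.73 CPM, farthest below.

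Members were also set against 7 genes that mark regional or reactive states of astrocytes. A rho past 0.2 with the same sign on both plates was found for 2 of 112 relations, beside 0.388% of 51814 relations of all genes. Efna5 and Aqp4, the water channel of astrocyte endfeet, had a rho of 0.27 on plate 2 and 0.30 on plate 3. Sema5b and Sparc, a secreted matrix protein, had 0.22 and 0.21, and this relation did not pass without the 45 cells that carried markers of another type. On plates 2 and 3, Efna5 was detected in 31 and 11 cells and Sema5b in 22 and 10. Most cells were thus tied at or near 0 CPM, and 2 relations are too few to set the members apart. With the number of genes detected, 1 of 16 members passed, beside 1.22% of all genes: Sema6d with 0.22 and 0.34.

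The other genes of these pathways were listed by role, in 82 names of which 81 have a row. Of them 10 were past 50% of the cells and 41 past 10%, beside the 5.92% and 45.3% of all genes. Several stand just beside the members: Nrcam, a cell adhesion partner of neuropilins, was in 225 cells at 716 ± 597 CPM, and Dpysl2, the cytoskeletal effector CRMP2 of semaphorin signalling, was in 221 cells at 634 CPM. Further plexin effectors in at least 50% of the cells were Gsk3b, a kinase acting on CRMP2, in 170 cells, Farp1 in 168, Mical2 in 157 and Arhgef12, an exchange factor between Plxnb1 and RhoA, in 147. Of the 20 genes of Eph and ephrin signalling, Ngef, the exchange factor ephexin, was the 1 past that share, with 144 cells. Vegfa, with 144 cells at 73.2 CPM, was the 1 of 7 neuropilin growth factor partners. Of the VEGF receptors of vessels, Flt1 was detected in 8 cells but had a read in 122. Kdr had a read in 17 cells but reached 10 CPM in none. From the netrin list came Rgma in 208 cells and its receptor Neo1 in 126, and none of the 7 slit and robo genes passed, with Robo1 highest at 42 cells.

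Leaving out the 45 cells with markers of another type left 205 cells and moved the wide members little, with Plxnb1 at 78.0% and Sema4a at 67.3%. Of 8 endothelial markers, Ly6c1 was detected in 9 cells, Slco1a4 in 6, Cldn5 in 2, and Pecam1 and Abcb1a in 1 each. Cdh5, Tie1 and Emcn reached 10 CPM in no cell. At 1 read the counts were higher, with Ly6c1 in 90 cells, Cldn5 in 84, Slco1a4 in 82, Abcb1a in 36 and Pecam1 in 34. Emcn had a read in 25 cells, Tie1 in 12 and Cdh5 in 8.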

How the data were processed

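Full-length Smart-seq2 libraries of 250 sorted single cells were used. The table the authors deposited holds whole-number read counts per gene, not normalized. STAR 2.4.2a and mm10 are named, per the submitters' processing notes. A counting tool, strand setting, annotation, sorting gate or cell filter was not given in the sources used here. A second table, scaled by the authors, was not used here.

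CPM was each count divided by the cell's total and scaled to 1000000. No cell was left out, 0 pairs of cells were identical and no doublet caller was run, since cells were sorted into single wells. Depth was 102161 to 564958 reads per cell, and 10 CPM is 1 read in a cell thinned to 100000 reads. Reads without molecular identifiers are not independent molecules. Gene positions, exon lengths and overlaps come from GENCODE M21 (GRCm38) and are 1-based. Expected numbers of cells with both genes were computed within each plate. The scripts for plate ratios and co-detection were tested on simulated data. Tools were Python 3.11.15, numpy 2.4.6, pandas 2.3.3, scipy 1.17.1, matplotlib 3.10.9 and, for an alternative scaling, edgeR 4.0.16 in R 4.3.3, which gave only TMM (trimmed mean of M values) factors.

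The members, lists and thresholds were chosen with earlier results of these data known. Named in full are members detected in at least 50% of cells or among the 10 highest per length. Members in at least 10% of cells are given by value and the rest by range and count. Also named are the 5 largest plate ratios in each direction, the 5 highest and 5 lowest co-detected pairs, ligand and receptor pairs with both genes in at least 10% of cells, and pathway genes in at least 50%. Other names were chosen after their values were seen. Alternatives were other thresholds (1 read, 50 CPM), thinning, TMM, totals without the 20 highest genes, each plate alone, leaving out the highest cells or the cells with other markers, other pseudocounts and another gene length.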

Additional observations from a re-analysis of the deposited data

How the results depend on the processing

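At a threshold of 50 CPM, 3 members in place of 5 passed 50% of the cells, and 6 pathway genes in place of 10. A listed ligand and its receptor were then in 23.6% of cells in place of 34%, and in 52% at 1 read. Under the other alternatives run (1 read, thinning, TMM, totals without the 20 highest genes, each plate alone, without cells with other markers) 5 members passed, and 14 to 18 were in at least 10% of the cells over all alternatives. The count of members at least 2-fold apart between plates was 3 with a pseudocount of 5 CPM (Ephb6, Sema4d and Sema6a) and 15 with no minimum of the mean. Without the highest cell of each gene on each plate it was 7, where Sema4g was lost and Epha7 (log2 ratio -2.03) and Sema5b were gained. Without the 3 highest cells, an alternative chosen after seeing the data, it was 9, with Ephb6 at -3.25 and Sema6a at 3.03. On plate 3 Epha7 was detected in 2 cells and Ephb6 in 4, so their ratios without the highest cells rest on few or no detecting cells there. Sema4b passed Plxnb1 in share of cells at 1 read and with totals without the 20 highest genes (79.2% against 78.4%). The rank correlation of means between plates stayed between 0.860 and 0.877. Ranked by median CPM per kb, 5 of the 10 highest members remained, since the medians of the others are 0. Without cells with other markers, 1 of the relations with regional genes remained. No member pair passed the co-detection limits under thinning, 1 read, 50 CPM or without cells with other markers. No result called in the report changed direction. Depth limits the sparse members: shares near 1 cell in 250 rest on 1 library. No paired analysis was possible because there is 1 group.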

Other observations

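A pair below the minimum expected count, chosen after its values were seen, had the highest rho of the 120 member pairs. Plxnc1, the plexin of Sema7a, and Sema5b were together in 9 cells where 3.58 were expected, with 5 cells against 2.44 on plate 2 and 4 against 1.14 on plate 3. Their rho over cells was 0.17 on plate 2 (162 cells) and 0.45 on plate 3 (88 cells), and in thinned cells the ratio was 2.61, close to the 2.51 of the full reads. Plxnc1 was in 28 cells and Sema5b in 32, so the value rests on few cells and carries no test.

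Several rare receptors and ligands had most of their reads in a single cell. Epha3 had 97.4% of its reads in 1 cell, Epha10 95.3%, Ephb2 72.3% and Efnb2 62.6%. In that cell Epha10 had 141 CPM and Epha3 90.6 CPM.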
